A study of Mus musculus with 2 samples.

Results

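The Hedgehog genes described here are Shh, Ptch1, Smo, Gli1, Gli2, Gli3, Hhip and Sufu, 8 of the 55536 GENCODE genes quantified, chosen as named components of the pathway and matched by gene symbol. They were measured by total RNA-seq of whole adrenal glands of female mice, 14 days old, of the F1 hybrid strain B6CASTF1/J, without a treatment or an engineered allele on the labels. The labels give 1 group of 2 libraries, each made from 300 ng of RNA after ribosomal RNA reduction with a strand-keeping kit and synthetic ERCC spike-in RNAs. The labels tie both libraries to 1 donor identifier and describe both with "3x Females", yet the tissue entry of replicate 2 is for 1 numbered female, so they may or may not be separate animals, and part of their spread may be technical.

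Hedgehog signalling starts with a secreted ligand that binds the receptor Ptch1 and so lifts the block that Ptch1 keeps on Smo, a membrane protein that acts in the primary cilium. Active Smo frees the Gli transcription factors from Sufu, and Gli1, Ptch1 and Hhip are themselves targets of the pathway. In the mouse adrenal gland, Shh is known as a product of cells under the capsule in the outer cortex, and Gli1 as a mark of the capsule cells that receive it.

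The libraries held 37586172 expected counts in replicate 1 and 33844950 in replicate 2, of which the spike-ins took 0.337% and 0.322%. At these depths, finding no read would still allow 3 counts, a share of 7.98e-06% in replicate 1 and 8.86e-06% in replicate 2. The adrenal label was borne out by Star, the carrier of cholesterol into mitochondria, at 2049 and 838 TPM (a length-corrected share of all transcripts), and by Th, the first enzyme of catecholamine synthesis, at 174 and 65.5 TPM. Replicate 2 also held far more signal of liver genes, whose 5 listed markers summed to 322 TPM in replicate 1 and 18009 TPM in replicate 2. The 5 skeletal muscle markers summed to 19.6 and 475 TPM, and the 5 T cell and thymus markers to 52.6 and 1.25 TPM, higher in replicate 1. In a gland sequenced whole, fewer cells of a type and less RNA per cell cannot be told apart.

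The sequences that distinguish or link the messages of this family come first, since the counting of reads depends on them. Ptch1 has 2 long protein-coding transcripts with different first exons, Ptch1-201 and Ptch1-202, whose annotated coding sequences of 4302 and 3891 bases begin at separate places on the minus strand of chromosome 13. Their first 60 coding bases, from the mm10 transcripts of GENCODE M21, lie at chr13:63565461-63565520 and chr13:63548067-63548126. Those of Ptch1-201 lie in its own first exon, and those of Ptch1-202 in an exon that Ptch1-201 also has. Both are shown 5′ to 3′ with the start codon in capitals.
Ptch1-201: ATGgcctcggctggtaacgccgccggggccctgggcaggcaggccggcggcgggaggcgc
Ptch1-202: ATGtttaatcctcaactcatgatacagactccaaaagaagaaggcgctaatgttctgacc
Of all 31-base words of a Ptch1 transcript, those found in no other Ptch1 transcript numbered 373 of 7695 in Ptch1-201 and 78 of 6972 in Ptch1-202, so most of each message could not tell them apart.

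The 3 Gli factors share zinc fingers that bind DNA, and their coding sequences are alike there. The longest identical run was 25 bases between Gli2-201 and Gli3-201, 23 bases between Gli1-201 and Gli2-201 and 14 bases between Gli1-201 and Gli3-201. No pair shared a 31-base word. The run of Gli2 and Gli3 is shown in capitals with its flanks, from chr1:118845982-118846066 on the minus strand and chr13:15713499-15713583 on the plus strand.
Gli2-201: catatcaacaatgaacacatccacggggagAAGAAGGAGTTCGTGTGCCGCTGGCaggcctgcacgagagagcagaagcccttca
Gli3-201: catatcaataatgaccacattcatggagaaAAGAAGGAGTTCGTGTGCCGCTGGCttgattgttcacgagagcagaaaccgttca
The run of Gli1 and Gli2 is shown in the same way, from exons on either side of an intron in chr10:127334332-127336013 and chr1:118844484-118845967, both on the minus strand.
Gli1-201: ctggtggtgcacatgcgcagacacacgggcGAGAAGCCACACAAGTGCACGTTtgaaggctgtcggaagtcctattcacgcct
Gli2-201: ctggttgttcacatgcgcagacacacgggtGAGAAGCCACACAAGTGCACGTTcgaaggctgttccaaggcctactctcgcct
The authors' posterior SD of the gene count, their own measure of how far shared reads could move it, was 0 in both libraries for Gli1, Gli2 and Gli3.

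Shh, the ligand, lies on chromosome 5 from 28456815 to 28467256 on the minus strand (ENSMUSG00000002633.4) and has 1 annotated transcript. It had 501 counts in replicate 1 and 353 counts in replicate 2, which came to 5.27 and 3.90 TPM (4.59 ± 0.969, SD, n = 2). The authors' intervals of these levels ran from 4.73 to 5.64 TPM in replicate 1 and from 3.44 to 4.23 TPM in replicate 2 and did not overlap. In rank, Shh stood above 61.8% of protein-coding genes in replicate 1 and 59.5% in replicate 2. Exons on the opposite strand overlap it for 446 bases (9530036O11Rik, with 7 and 2 counts) and 361 bases (Gm26894, with 14 and 11 counts).

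Dhh, a ligand best known from Schwann and Sertoli cells, stood at 0.66 and 0.49 TPM. The level of Shh was thus 7.99 and 7.96 times that of Dhh in the same library (log2 ratio of TPM 2.99 ± 0.0033, SD, n = 2). TPM divides counts by the gene's effective length, for Dhh 2937 bases in replicate 1 and 3903 bases in replicate 2. The small SD depends on these lengths. The ratio of Shh counts to Dhh counts was 7.48 in replicate 1 and 5.57 in replicate 2. This count ratio changed 0.745-fold (interval 0.509 to 1.105, counting error only). In the second transcript table the ratio of TPM was 12.4 and 9.4. Ihh, the ligand of growing bone and gut, had 2 counts in replicate 1 and 15 counts in replicate 2, far below those of Shh, and is named after its values were seen. Shh was thus the highest of the 3 ligand genes in both libraries.

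Ptch1, the receptor that binds the ligand and holds Smo in check, lies on chromosome 13 from 63508328 to 63573598 on the minus strand (ENSMUSG00000021466.12). It had 2202 and 1810 counts, and its levels were nearly equal, 11.2 TPM in replicate 1 and 11.1 TPM in replicate 2 (11.1 ± 0.113, SD, n = 2). TPM divides the counts by the gene's effective length, here 5678 bases in replicate 1 and 4968 bases in replicate 2. The near equality depends on these lengths too. The authors' intervals, from 10.1 to 12.8 TPM and from 9.91 to 12.8 TPM, covered each other almost wholly.

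Smo, the signal transducer, lies on chromosome 6 from 29735503 to 29761365 on the plus strand (ENSMUSG00000001761.7). Its 1932 and 1301 counts gave 15.4 TPM in replicate 1 and 10.8 TPM in replicate 2 (13.1 ± 3.25, SD, n = 2), with authors' intervals from 14.5 to 15.8 TPM and from 10.1 to 11.2 TPM. Smo was therefore above Ptch1 in replicate 1 and just below it in replicate 2, at a ratio of Ptch1 to Smo of 0.727 and 1.02 in TPM. The order of the pair was not settled, since their ranges overlap.

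Hhip, a membrane protein that binds Hedgehog ligands and keeps them from Ptch1, lies on chromosome 8 from 79965851 to 80058006 on the minus strand (ENSMUSG00000064325.4). It had 535 and 450 counts and almost the same level in both libraries, 2.06 and 2.09 TPM (2.08 ± 0.0212, SD, n = 2). Its effective length was 7524 bases in replicate 1 and 6546 bases in replicate 2, and the small SD depends on these lengths too. The level of Ptch1 was 5.44 and 5.29 times that of Hhip (log2 ratio of Hhip to Ptch1 -2.42 ± 0.0294, SD, n = 2). Hhip and Ptch1 thus kept nearly the same ratio in the 2 libraries. The ratio of their counts changed by 1.02-fold from replicate 1 to replicate 2 (95% interval 0.887 to 1.18, counting error only). Ratios of Ptch1 with Shh and Smo moved more. That of Shh to Ptch1 was 0.470 and 0.353 in TPM, and in counts it changed 0.857-fold (95% interval 0.736 to 0.998). The ratio of Ptch1 counts to Smo counts changed 1.22-fold (95% interval 1.11 to 1.34). The ratio of Sufu counts to Gli1 counts changed only 0.940-fold (95% interval 0.706 to 1.25). A small change was thus not particular to Hhip and Ptch1.

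Sufu, the cytoplasmic protein that holds Gli factors back, lies on chromosome 19 from 46396896 to 46488804 on the plus strand (ENSMUSG00000025231.17). It had 722 and 525 counts, or 6.41 TPM in replicate 1 and 4.85 TPM in replicate 2 (5.63 ± 1.10, SD, n = 2), with authors' intervals from 5.90 to 7.82 TPM and from 4.46 to 6.33 TPM that overlap. Its level was 4.97 and 3.67 times that of Gli1.

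Gli1, the activator whose gene is a direct pathway target, lies on chromosome 10 from 127329882 to 127341974 on the minus strand (ENSMUSG00000025407.7). It had 137 and 106 counts and stood at 1.29 and 1.32 TPM (1.31 ± 0.0212, SD, n = 2). Its effective length was 3070 bases in replicate 1 and 2429 bases in replicate 2, and the small SD depends on these lengths too. The authors' intervals, from 1.16 to 2.09 TPM and from 1.05 to 2.12 TPM, were wide against this small spread. Gli1 stood above 45.8% of protein-coding genes in replicate 1 and 46.5% in replicate 2. It overlaps exons of Arhgap9 on the opposite strand for 62 bases and of Gm47200 for 265 bases. These genes had 62 and 33 counts (Arhgap9) and 0 and 4 counts (Gm47200), and use of strand in the counting is not given in the sources used here.

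Gli2, the main activator upstream of Gli1 in other mouse tissues, lies on chromosome 1 from 118834132 to 119053619 on the minus strand (ENSMUSG00000048402.14). It had the fewest reads of the 8 genes, 71 counts in replicate 1 and 77 counts in replicate 2, and stood at 0.44 and 0.55 TPM (0.495 ± 0.0778, SD, n = 2). The authors' intervals, from 0.55 to 1.28 TPM and from 0.62 to 1.41 TPM, lay above their own point estimate in both libraries. The level of Gli2 is thus less certain than its counts.

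Gli3, which in the absence of ligand is cut into a repressor, lies on chromosome 13 from 15463235 to 15730026 on the plus strand (ENSMUSG00000021318.15). It had 799 and 373 counts, or 3.80 TPM in replicate 1 and 1.84 TPM in replicate 2 (2.82 ± 1.39, SD, n = 2). The authors' intervals, from 3.44 to 4.38 TPM and from 1.60 to 2.35 TPM, lay apart. Gli3 stood above 57.2% of protein-coding genes in replicate 1 and 49.6% in replicate 2.

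**Figure D1:**
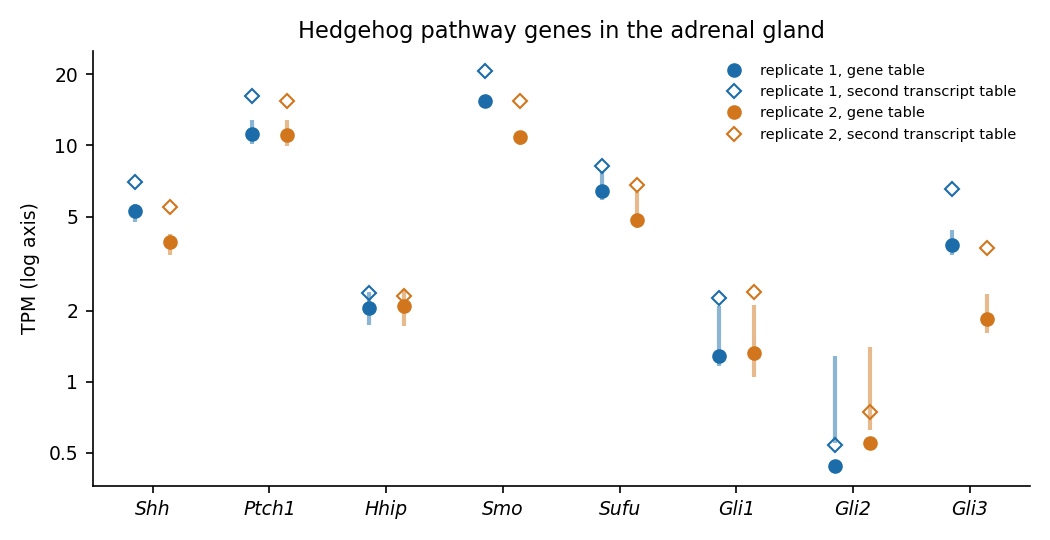
Level of the 8 Hedgehog genes in TPM (log axis). Filled circles are the gene table's value for each library with the authors' interval as a bar, and open diamonds are the sum over transcripts in the second transcript table. Smo and Ptch1 lead in both libraries, Gli2 is lowest at 0.44 and 0.55 TPM, and the largest gap between libraries on the log axis is that of Gli3.

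By mean level the genes ran Smo, Ptch1, Sufu, Shh, Gli3, Hhip, Gli1 and Gli2. Of the 7 neighbouring pairs in this order, Smo and Ptch1, Sufu and Shh, and Gli3 and Hhip did not differ beyond the larger SD of the pair, and their ranges overlap. Ptch1 lay above Sufu, Shh above Gli3, Hhip above Gli1 and Gli1 above Gli2 by more than that SD. Each SD rests on 2 libraries. Those of Ptch1, Hhip and Gli1 also rest on effective lengths that differ between the libraries. The step from Hhip to Gli1 rests on an SD of 0.0212 TPM, while the authors' intervals of these genes overlap. In the second transcript table the members stood at mean levels of 18.1 TPM (Smo), 15.8 TPM (Ptch1), 7.51 TPM (Sufu), 6.27 TPM (Shh), 5.12 TPM (Gli3), 2.33 TPM (Hhip and Gli1) and 0.643 TPM (Gli2). Smo and Ptch1 were again highest and Gli2 lowest there, and in replicate 2 Gli1, at 2.41 TPM, lay above Hhip, at 2.30 TPM. Shh (7.02 and 5.51 TPM) and Gli3 (6.54 and 3.69 TPM) overlapped in that table. Their means there did not differ beyond the SD of Gli3, 2.02 TPM, so this step depends on the table. Rescaled to protein-coding genes alone, the mean levels were higher throughout, with 32.9 TPM for Smo, 11.5 TPM for Shh and 1.26 TPM for Gli2.

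Among the Gli factors the balance was not the same in both libraries. The level of Gli3 was 8.64 times that of Gli2 in replicate 1 and 3.35 times in replicate 2, and 2.95 and 1.39 times that of Gli1. The ratio of Gli3 counts to Gli2 counts was 11.2 in replicate 1 and 4.84 in replicate 2, a 2.32-fold lower ratio in replicate 2 (95% interval 1.62 to 3.33). The ratio of Gli3 counts to Gli1 counts was 1.66-fold lower in replicate 2 (95% interval 1.24 to 2.22). These ratios are taken within a library and so do not depend on how the libraries are scaled. Their intervals cover counting error only. Gli2 and Gli1 were closer to each other, with a ratio of 0.341 and 0.417 in TPM.

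The libraries were then set against each other as log2 of replicate 2 over replicate 1 after TMM scaling, which equalises the bulk of genes. With 1 group and each side resting on 1 library there is no test, no replicate check and no p-value. Of the 8 Hedgehog genes, 2 lay past 1.5-fold, against 23.1% of the 16170 genes whose counts averaged 20 or more, so this share is close to the background. Gli2 was the 1 member higher past 1.5-fold in replicate 2 (14.4% of all genes were), and Gli3 the 1 member lower (8.7% of all genes were). The other 6 members lay within 1.5-fold, and none of the 8 lay past 2-fold (11.0% of all genes). The median over the members was 0.08, and over all genes -0.0021. Above 0 lay 5 members and below it 3, against 49.8% and 50.2% of all genes. This balance is set by the scaling, since with total counts or spike-ins only Gli2 lay above 0 and 7 members below, with medians of -0.26 and -0.20.

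Gli3 was lower by 0.61 on the log2 scale in replicate 2, a fold of 0.656 (95% interval 0.578 to 0.743, counting error only). Of the 3378 genes with a mean count within 1.5 times that of Gli3, 3.7% were lower past 1.5-fold. The second transcript table gave Gli3 a log2 difference of -0.55, inside the 1.5-fold line, while scaling by total counts or by spike-ins gave -0.95 and -0.88, and the ratio of TPM, with 0.1 TPM added, gave -1.01. Gli3 was lower in replicate 2 under each of these alternatives.

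Gli2 was higher by 0.61 on the log2 scale, a fold of 1.52 (95% interval 1.09 to 2.13), with 71 and 77 counts. Of the 1723 genes with a like mean count, 19.2% were higher past 1.5-fold. Scaling by total counts or by spike-ins gave Gli2 a log2 difference of 0.27 and 0.33, inside the line, while it was 0.73 in the second table. Its interval reaches from little change to above 2-fold.

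Ptch1 (0.21, 95% interval 0.12 to 0.30) and Hhip (0.24, 95% interval 0.06 to 0.42) had small positive log2 differences under TMM scaling. Under total-count scaling these were -0.13 for Ptch1 and -0.10 for Hhip, where the median of all genes moved to -0.34, and under spike-in scaling -0.07 and -0.03, with the median of all genes at -0.28. These scalings move every gene by the same amount, and the sign of Ptch1 and Hhip followed it. Shh (-0.01), Sufu (0.03), Smo (-0.08) and Gli1 (0.12) had intervals that include 0 under TMM scaling. With total counts their log2 differences were -0.35 for Shh, -0.31 for Sufu, -0.42 for Smo and -0.22 for Gli1, and on the scale of TPM with 0.1 added -0.42, -0.40, -0.51 and 0.03 in the same order of genes.

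**Figure D2:**
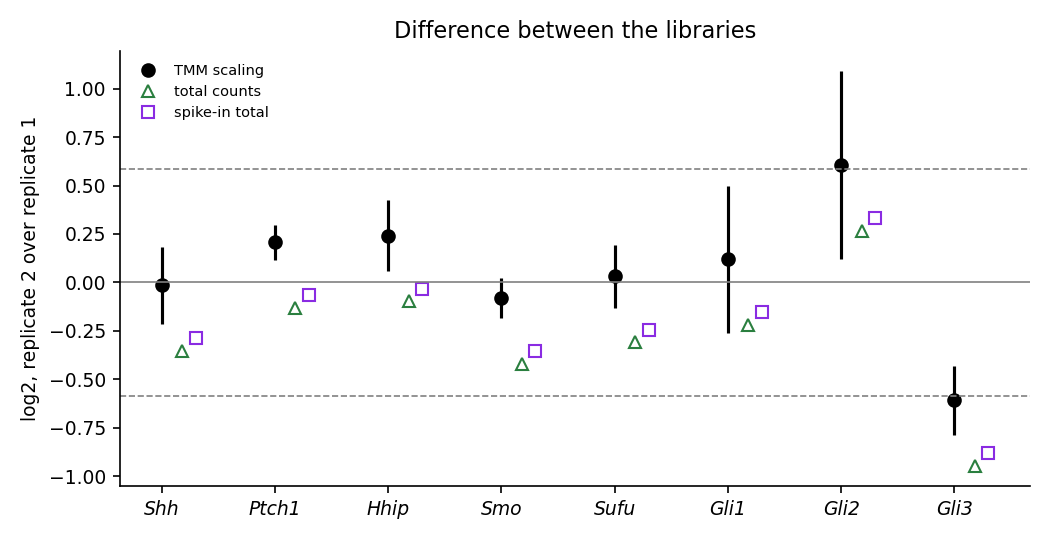
Difference of the 8 Hedgehog genes between the libraries as log2 of replicate 2 over replicate 1. Black circles use TMM scaling with the 95% counting interval as a bar, triangles use total counts and squares the spike-in total. Dashed lines mark 1.5-fold. Gli3 lies below the lower line under all 3 scalings, and Gli2 above the upper line under TMM only.

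The transcripts of these genes numbered 40, and 28 of them reached 5% of their gene's TPM in a table or library. The leading transcript was the same in the first and the second transcript table for 8 of 8 genes. Smo was carried by Smo-201, with 95.5% and 97.1% of its TPM in the first table, next to the retained-intron transcript Smo-202 (4.54% and 2.87%). Hhip-201 took 81.6% and 69.3% of Hhip, the rest being the noncoding Hhip-202 (18.4% and 30.8%), which stood on 14.0 and 22.7 counts.

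Ptch1-202 led Ptch1 with 49.4% and 40.0% of its TPM in the first table and 42.4% and 38.1% in the second. Ptch1-201 had 24.2% and 22.8% in the first table and a mean of 20.6% in the second, so Ptch1-202 lay above Ptch1-201 in both. Ptch1-202 starts 1200 bases downstream of Ptch1-201 in mm10, with distances of 9063 and 7863 bases from the most upstream annotated start. For the short transcripts, some of which had a share like that of Ptch1-201 or above it, the tables parted. Ptch1-207 took 16.1% and 24.6% in the first table and was at 0 in the second, while Ptch1-203 was at 0 in the first and took 20.7% and 23.4% in the second. Only 35 of 779 words of Ptch1-207 and 73 of 819 words of Ptch1-203 are found in no other Ptch1 transcript. Ptch1-205 (0.94% in replicate 1 and 0% in replicate 2 in the first table, then 8.12% and 7.65%) and the retained-intron transcript Ptch1-208 (3.68% and 7.33%, then 2.43% and 2.80%) were minor.

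**Figure D3:**
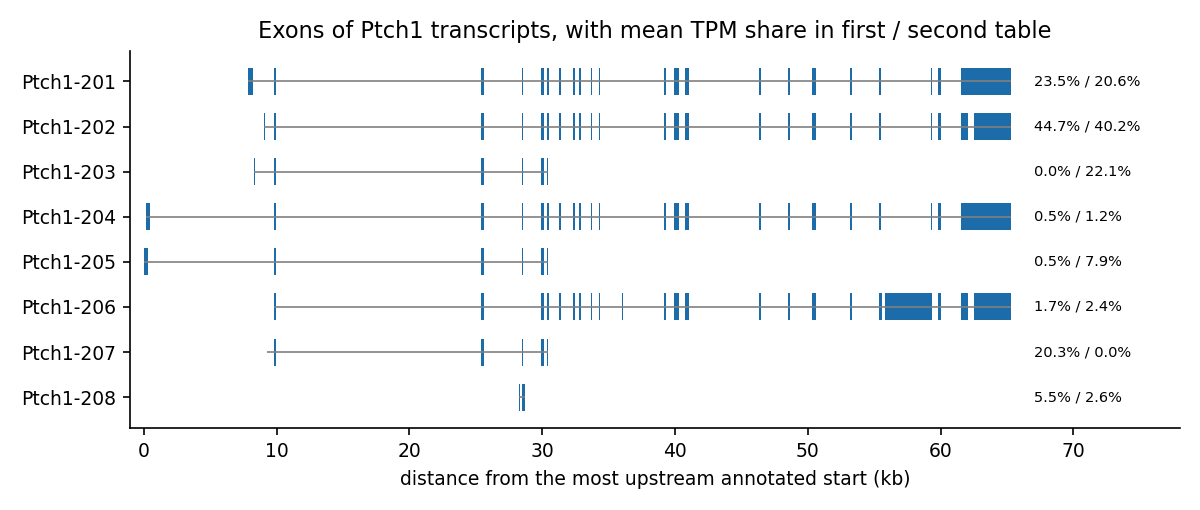
Exons of the Ptch1 transcripts named or of similar extent, drawn to scale by distance in kilobases from the most upstream annotated start, in the direction of transcription. Numbers at the right are the mean percent of Ptch1 TPM over both libraries in the first and in the second table. Ptch1-201 and Ptch1-202 share most exons and hold 23.5% and 44.7% in the first table. They differ in the first exon and at the 3′ end, where the last exon of Ptch1-201 is split by an intron in Ptch1-202.

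The promoter of Ptch1 in the RefSeq table (GRCm38.p6, which has 6 of the 8 genes, without Shh and Gli1) begins transcription at the first base of Ptch1-201. The 250 bases before that start, chr13:63565736-63565985 on the minus strand, are shown because Ptch1 is a direct Gli target with alternative starts, and no capitals are used because no motif was found in them.
Ptch1 promoter: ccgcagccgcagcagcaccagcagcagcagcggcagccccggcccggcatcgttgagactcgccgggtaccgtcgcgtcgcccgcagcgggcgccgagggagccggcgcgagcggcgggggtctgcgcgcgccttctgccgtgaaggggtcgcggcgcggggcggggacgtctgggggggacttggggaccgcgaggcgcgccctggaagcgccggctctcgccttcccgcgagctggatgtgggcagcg
It holds 78.4% G and C. The Gli motif GACCACCCA, searched on both strands (TGGGTGGTC on the other), was in 0 of these 6 promoters and in 83 of all 32851 promoters of the table (0.253%), and its first 8 bases, GACCACCC, in 0 of 6 and in 265 of 32851 (0.807%). These searches say only that the letters are not in this window.

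Sufu-201 led Sufu with 58.8% and 58.1% of its TPM in the first table and 60.2% and 55.7% in the second. Sufu-202 (11.8% and 19.6%) and Sufu-203 (8.76% and 8.81%) followed among the protein-coding transcripts, and Sufu-204 had 5.0% and 2.18%. The noncoding Sufu-207 had 9.51% and 8.58%, and the retained-intron Sufu-206, with 6.17% and 2.75% in the first table, was at 0 in the second. Sufu-201 and Sufu-202 end their coding sequence in the same 48 bases, chr19:46485897-46485944, and Sufu-203 ends in others, chr19:46475707-46475754, shown with the stop codon in capitals because the transcripts differ there.
Sufu-201: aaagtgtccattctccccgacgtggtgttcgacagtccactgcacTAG
Sufu-203: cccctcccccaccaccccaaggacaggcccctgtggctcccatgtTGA
The form with the first ending was thus the main one in both libraries and tables.

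For the Gli genes, shares of TPM rested in part on a few reads of short transcripts. Gli1-201 held 128 of the 137 counts of Gli1 in replicate 1 and 93.9 of 106 in replicate 2 in the first table, yet its share of TPM was 72.2% and 54.3%. The protein-coding Gli1-202, 467 bases long, had 1.65% on 0.27 counts in replicate 1 and 19.1% on 3.06 counts in replicate 2. The retained-intron Gli1-205 (20.95% and 21.6%) stood on 6.51 and 6.55 counts, and Gli1-203 (5.17% and 5.05%) on 2.66 and 2.54. TPM divides by effective length, which was 99 bases under the length of every member transcript in the first table, and 169 and 156 bases for Gli1-202 in the second, where it reached 24.8% and 34.7%. The shares of TPM within Gli1 therefore depend on a few reads, while its gene count rests mostly on Gli1-201. The effective length behind the TPM of the gene depends on these shares.

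Gli2-201 had 68.3% and 58.6% of Gli2, on 67.5 and 69.7 counts. Gli2-204 had 0% in replicate 1 and 27.7% in replicate 2 on 5.52 counts, and Gli2-209 31.7% and 13.6% on 3.47 and 1.79 counts. Gli3-201, the full-length coding transcript, took 66.0% and 67.4% of Gli3, on 701 and 329 counts, with Gli3-202 at 22.8% and 21.7% and the retained-intron Gli3-203 at 11.1% and 10.9%. Gli3-204, 466 bases long, was at 0 in the first table and at 24.2% and 28.7% in the second, on 8.48 and 4.60 counts. The lower count of Gli3 in replicate 2 was thus shared by Gli3-201, Gli3-202 (57.2 and 25.0 counts) and Gli3-203 (41.2 and 18.6 counts), whose shares of TPM were nearly the same in both libraries.

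**Figure D4:**
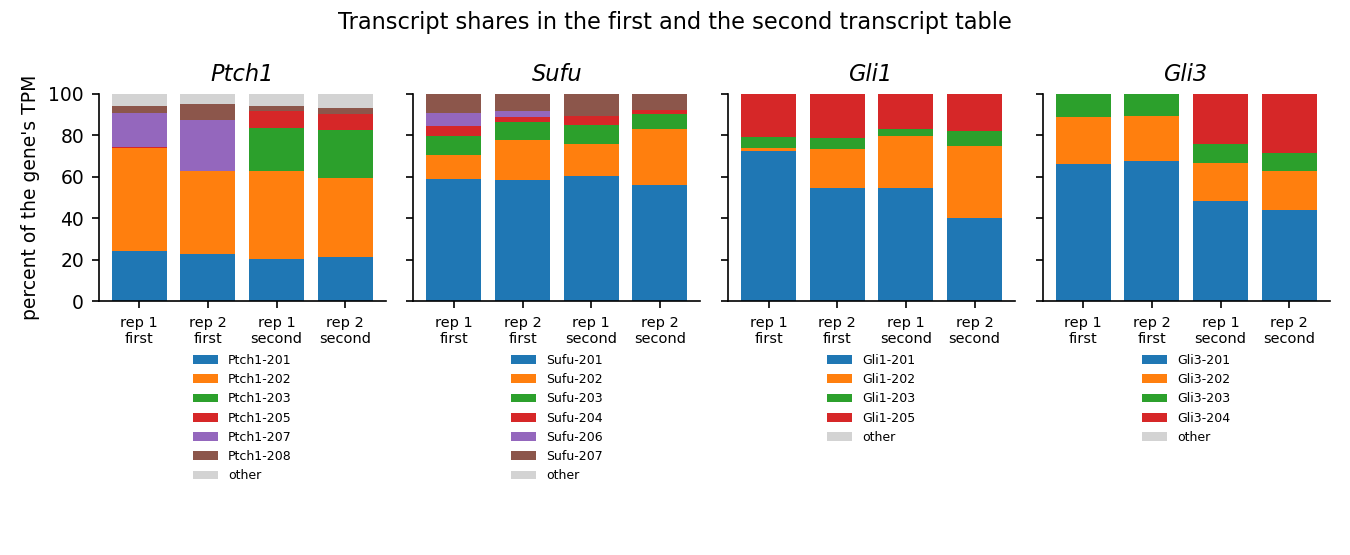
Percent of the gene's TPM given to each transcript of Ptch1, Sufu, Gli1 and Gli3, for both libraries in the first and in the second transcript table. Coloured parts are transcripts of at least 5% in a table or library, and grey is the sum of the others. The shares of Gli3 are alike between libraries within a table, while Gli1-202 has 1.65% and 19.1% in the first table.

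Around the 8 genes, 31 further genes of the pathway on 4 lists were examined, of which 29 averaged 20 or more counts. Past 1.5-fold lay 1 gene in each direction and 27 did not, with a median log2 difference of -0.16. Against the 2 of 29 genes past the line stood 23.1% of all genes. With total counts 10 lay past it and with spike-ins 5, all lower, and 0 did in the second transcript table. The shares of all genes past it were 33.9% with total counts, 29.6% with spike-ins and 23.0% in the second table. Of all 16170 genes, 4027 were lower past it with total counts and 3229 with spike-ins. Of 7 genes for other ligands and ligand processing, 5 could be compared and none lay past 1.5-fold under TMM scaling (3 were lower past it with total counts, 2 with spike-ins). Disp1, which releases the lipid-modified ligand, stood at 5.08 and 2.49 TPM, Scube3, of a family that carries the ligand, at 4.28 and 2.57 TPM, and Hhat, which attaches palmitate to Shh, at 2.21 and 1.46 TPM. Disp1 (-0.44), Scube3 (-0.31) and Hhat (-0.28) had the lowest log2 differences of the list, while Scube1 (0.06) lay near 0.

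Of the 5 other receptors and co-receptors, 1 was higher past 1.5-fold (14.4% of all genes were) and 4 were not. With total counts or spike-ins 0 were higher past it, against 1449 and 1565 of all 16170 genes. Gas1, a co-receptor, stood at 15.3 and 14.6 TPM and Boc at 15.2 and 9.57 TPM, levels like those of Smo and Ptch1. Cdon, at 8.11 and 6.02 TPM, lay below Smo and Ptch1 in both libraries. The gene past the line was Lrp2, an endocytic receptor, with 73 and 84 counts and a log2 difference of 0.69 (95% interval 0.22 to 1.17).

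The 13 cytoplasmic regulators of Gli proteins all lay within 1.5-fold under TMM scaling, with a median log2 difference of -0.18. Past it lay 23.1% of all genes. With total counts 3 of the 13 were lower past it and with spike-ins 1, against 4027 and 3229 of all 16170 genes. Prkaca, the catalytic subunit of protein kinase A, at 84.6 and 66.96 TPM, and Csnk1a1, casein kinase 1 alpha, at 84.2 and 57.96 TPM, were the highest of them. Both kinases phosphorylate Gli proteins and serve many other pathways. Cul3 stood at 40.95 and 25.2 TPM and Spop, which with Cul3 marks Gli proteins for breakdown, at 32.8 and 26.6 TPM. Of 6 primary cilium genes, 1 was lower past 1.5-fold (8.7% of all genes were). With total counts or spike-ins 2 were, against the same 4027 and 3229 of all genes. The gene lower under TMM scaling was Dync2h1, the motor of transport back from the tip, at 1566 and 731 counts (log2 difference -0.61, 95% interval -0.74 to -0.48). Ift172, a protein of the transport machinery of the cilium, stood at 9.18 and 8.02 TPM and Tulp3 at 10.6 and 5.80 TPM.

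Genes listed for the capsule and mesenchyme and for the outer cortex are given here for both libraries, with no test. The capsule and outer cortex hold the Hedgehog receiving and sending cells. Whether the signal of these genes came from those tissues was not tested. Replicate 2 also held more liver and skeletal muscle signal, and replicate 1 more T cell and thymus signal. Of 8 capsule and mesenchyme genes, 6 were higher past 1.5-fold in replicate 2 and 2 were not (median log2 difference 0.82), against 14.4% of all genes higher. With total counts or spike-ins 3 of the 8 were higher past it (Col1a1 and Col3a1 among them), against 1449 and 1565 of all 16170 genes. The levels of the 8 summed to 305 TPM in replicate 1 and 383 TPM in replicate 2. Col3a1 (1.00), Col1a1 (0.93), Dcn (0.67) and Lum (0.83) were among the higher ones, while Nr2f2 (-0.01) and Pdgfra (-0.01) lay near 0. Of 7 genes of the subcapsular cortex and glomerulosa, 3 were lower past 1.5-fold, Dab2 (-0.60), Cyp11b2 (-0.66) and Lef1 (-0.94), and 4 were not, Wnt4 (0.13), Axin2 (-0.07) and Nr0b1 (0.10) among them, against 8.7% of all genes lower. With total counts or spike-ins 4 of the 7 were lower past it, against 4027 and 3229 of all 16170 genes. The sum of the 7 was 240 TPM in replicate 1 and 128 TPM in replicate 2.

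All 6 cortex identity genes were lower past 1.5-fold in replicate 2 (8.7% of all genes were), with a median of -0.92 and sums of 4979 and 2024 TPM. So were all 4 chromaffin genes (median -0.89). Against these, Shh (-0.01) and Gli1 (0.12) lay within 1.5-fold. Of 5 Schwann and sustentacular cell genes, 3 were higher past 1.5-fold and 2 were not (median 0.78). Of 4 fat genes, 3 were higher (median 0.67), against 14.4% of all genes higher past the line. With total counts or spike-ins 2 of the 5 Schwann and sustentacular cell genes and 0 of the 4 fat genes were higher past the line. Of all 16170 genes, 1449 were higher past it with total counts and 1565 with spike-ins. The liver list (median 6.32), the skeletal muscle list (median 5.10) and the T cell list (median -5.31) lay past 1.5-fold in all 5 of their genes each. Of all genes, 23.1% lay past it, and no marker of these lists was at 0. The part of these cells in the values of Gli3, Gli2 and the other Hedgehog genes was not tested.

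**Figure D5:**
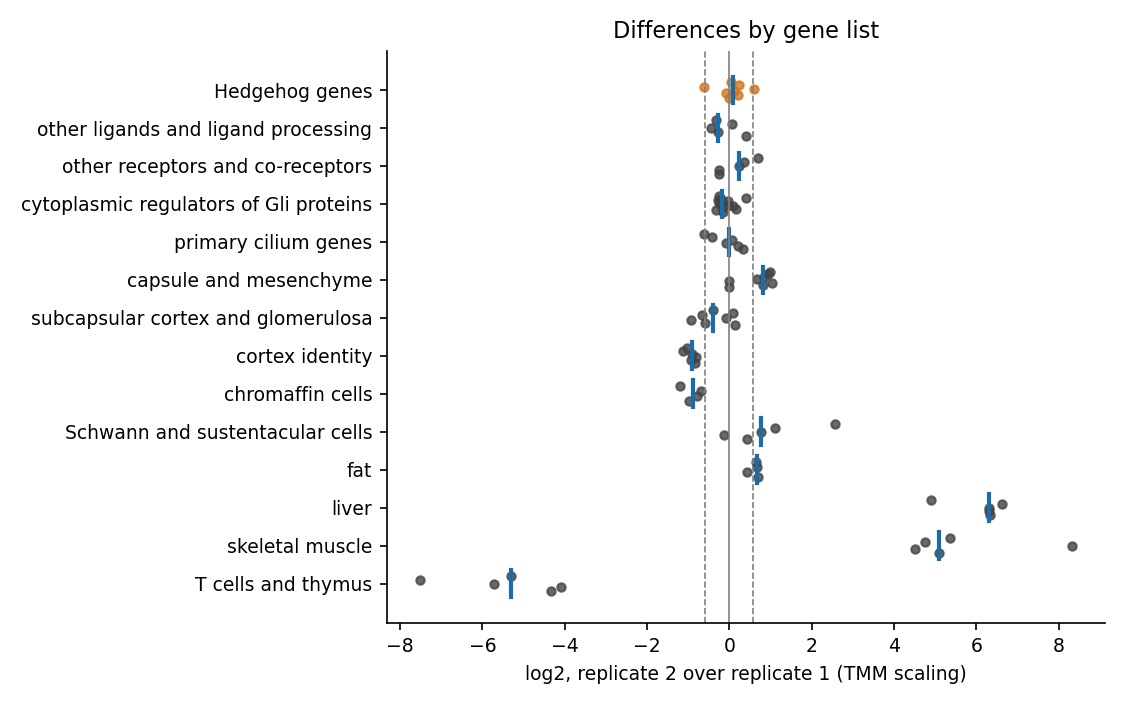
Difference of each gene on 14 lists as log2 of replicate 2 over replicate 1 after TMM scaling, for genes with 20 or more counts on average. Points are genes, blue bars list medians and dashed lines 1.5-fold. The Hedgehog genes in orange lie between -0.61 and 0.61, while liver and skeletal muscle genes lie above 4 and T cell genes below -4.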

How the data were processed

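Per the labels, total RNA of the adrenal gland was sequenced in 1 group of 2 libraries. Per the file headers, the authors' expected counts and TPM (relative to all entries) are in the deposited gene table and first transcript table, and this transcript table also has the percent of a gene's TPM per transcript. The second deposited transcript table holds estimated counts and TPM. The deposited interval bounds of TPM and the posterior SD of the count were read as the authors' scores. The text beside the files names mm10 and GENCODE M21. Tools, versions and use of strand were not given in the sources used here.

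All 55536 GENCODE genes matched the annotation of that release. Expected counts were rounded and scaled with TMM (edgeR 4.0.16, R 4.3.3), with a prior count of 0.5. A gene was counted as past the line at 1.5-fold with a mean count of at least 20. Intervals are exact at 95% (Clopper-Pearson for folds, conditional for ratios of counts; scipy 1.17.1) and cover counting error only. Alternatives were DESeq2 1.42.0 size factors, total and spike-in scaling, count minimums, prior counts, pseudocounts, TPM rescaled to protein-coding genes, the second table and leaving out each library. Scripts were tested on simulated counts. The Hedgehog genes and the lists were chosen with earlier results of these data known. Named were the 8 genes, their transcripts of at least 5% and at most 6 genes a list, those of highest mean TPM first. With 1 group, no groups could be tested. Values of 1 listed gene are not reported here.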

Additional observations from a re-analysis of the deposited data

How the results depend on the processing

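Of the 8 Hedgehog genes, 2 lay past 1.5-fold. With total-count scaling 1 did and with spike-in scaling 1 (Gli3 each time), 1 (Gli2) in the second transcript table, and 0 past 2-fold. Over all genes 3738 lay past 1.5-fold (23.1%), with 5476 (33.9%) by total counts, 4794 (29.6%) by spike-ins and 23.0% by the second table, against 1772 past 2-fold and 11599 with no count minimum. The higher share of these calls was 62.4% with TMM, 26.5% with total counts and 32.6% with spike-ins. Of the further pathway genes, 2 lay past 1.5-fold, against 10 with total counts, 5 with spike-ins (all lower), 0 by the second table and 0 past 2-fold. The cause of these moves was not tested, beyond the shift of all genes by -0.34 and -0.28 that the scalings make. Log2 ratios between genes moved by more than 1 SD for Gli2 to Gli1 (-1.88), Hhip to Ptch1 (-2.76), Sufu to Gli1 (1.68) and Shh to Dhh (3.44) in the second table, and for Hhip to Ptch1 (-2.37) and Shh to Dhh (2.79) with 0.1 TPM added. Gli2 and Gli3, the genes past the line, kept their sign in every alternative run. Ptch1, Hhip, Gli1 and Sufu, within it, turned negative with total counts or spike-ins, Shh (0.04) turned positive in the second table, Ptch1 (-0.02) and Sufu (-0.40) turned negative with 0.1 TPM added, and the log2 ratio of Ptch1 to Smo (-0.22) was 0.03 without replicate 1. Rescaling TPM to protein-coding genes moved the mean level of all 8 genes, to between 1.26 and 32.9 TPM. Counts of the marker lists under other scalings were added after the values were seen. No paired analysis was possible because there is 1 group. Values of Gli1 and Gli2 are limited by their depth of 71 to 137 counts.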
